A study of Mus musculus with 10 samples.

Results

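The IGKV9 family is a small group of V gene segments at the far end of the mouse immunoglobulin kappa light chain locus (Igk). The 5 segments described here, IGKV9-120, IGKV9-123, IGKV9-124, IGKV9-128 and IGKV9-129, were chosen by name from the 114 V segments of the deposited table. They held 6579 of 161780 counts, 4.07% of the total, in 860 distinct combinations of V segment, J segment and joint. A sixth segment of that family name, IGKV9-119, was not among them and held 12 counts, 5 in WT and 7 in rsCBE. The samples were bone marrow small pre-B cells, purified by flow cytometry from C57Bl6 mice of 6 to 12 weeks. The 5 WT samples came from wild-type mice and the 5 rsCBE samples from mutants that the series' design text writes with a delta before the name. The labels do not spell the name out, and a further mutant of that text was not analysed here. Replicates 1 and 2 of each genotype were given as 1 library each and replicates 3, 4 and 5 as 2 parts, which were added up; this is called the deposit structure (4 samples of 1 library, 6 of 2 parts).

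Sample totals ran from 3109 counts (WT replicate 4) to 24083 counts (rsCBE replicate 1). A value that rests on 1 sample is therefore least precise in WT replicate 4, which held 155 IGKV9 counts. The labels do not say that replicates came from separate mice, so p-values measure the spread between these samples only. The table holds Igk transcripts alone, so the labelled cell type could not be checked against markers of other genes. Counts come from an amplified library, and whether they stand for independent molecules is not stated; an interval printed for 1 sample reflects counting error alone.

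A kappa chain gene is made in pre-B cells when the RAG recombinase joins 1 V segment to 1 J segment, and the bases around the joint encode CDR3, the most variable loop of the chain. V segments of the same orientation as the J segments join by deleting the DNA between them, and those of the opposite orientation by inverting it. A first rearrangement can be replaced by another between a V segment farther upstream and a J segment farther downstream. This is receptor editing, by which a B cell can change an autoreactive light chain. J1 is the J segment nearest to the V segments and J5 the farthest, and a join to J5 leaves no J segment for another replacement of this kind on that allele.

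All 5 segments lie on chromosome 6 of the mouse genome build GRCm38 (GENCODE M21 annotation, positions counted from 1), and each has 2 exons, of which exon 2 carries the variable domain and the start of CDR3. IGKV9-120 spans 68049983 to 68050456 on the plus strand, 2672.1 kb from J1. IGKV9-129, the farthest, spans 67839793 to 67840266 on the plus strand, 2882.3 kb from J1. IGKV9-128 lies beside it at 67847409 to 67847874, plus strand, 2874.7 kb from J1, and is annotated as a pseudogene. IGKV9-123 (67954228 to 67954714) and IGKV9-124 (67942074 to 67942540) lie on the minus strand, 2767.8 and 2780 kb from J1. The plus strand segments join by deletion, and IGKV9-123 and IGKV9-124 by inversion.

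The 298 bases of exon 2 are shown for the 3 segments that the results turn on, read 5′ to 3′ along the gene from the annotation's transcripts. In IGKV9-120 the capitals mark the 23 bases that enter CDR3. In IGKV9-129 they mark the bases that differ from IGKV9-120, and in IGKV9-128 a stop codon in the reading frame, codon 71 of the exon.
IGKV9-120: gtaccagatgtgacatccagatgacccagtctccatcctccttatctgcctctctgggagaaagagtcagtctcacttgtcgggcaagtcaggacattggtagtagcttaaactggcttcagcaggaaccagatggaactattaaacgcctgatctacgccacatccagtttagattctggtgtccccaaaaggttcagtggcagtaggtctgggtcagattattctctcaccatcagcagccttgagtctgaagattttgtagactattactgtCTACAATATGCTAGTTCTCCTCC
IGKV9-129: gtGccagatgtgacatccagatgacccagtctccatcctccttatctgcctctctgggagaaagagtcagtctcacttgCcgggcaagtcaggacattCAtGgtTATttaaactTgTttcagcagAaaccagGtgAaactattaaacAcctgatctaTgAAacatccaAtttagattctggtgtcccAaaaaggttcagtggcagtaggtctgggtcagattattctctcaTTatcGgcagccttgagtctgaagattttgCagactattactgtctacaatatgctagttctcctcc
IGKV9-128: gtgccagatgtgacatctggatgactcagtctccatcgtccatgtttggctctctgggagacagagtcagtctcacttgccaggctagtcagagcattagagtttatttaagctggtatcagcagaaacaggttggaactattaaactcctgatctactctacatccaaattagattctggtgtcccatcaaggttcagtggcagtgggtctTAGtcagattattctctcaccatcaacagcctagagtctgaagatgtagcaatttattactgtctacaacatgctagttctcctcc

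IGKV9-120 and IGKV9-129 were 92.3% identical over exon 2, with 23 differences, none of them in the part that enters CDR3. IGKV9-124 was the closest to IGKV9-120, at 96.0% and 12 differences. IGKV9-123 and IGKV9-128 were 86.2% and 83.6% identical to it. The stop codon of IGKV9-128 lies upstream of CDR3, so a join of this segment cannot encode a full light chain even where its CDR3 is in frame. The 23 bases at the end of exon 2 are what remains of each segment in the joints described below; capitals mark bases that differ from IGKV9-120, of which IGKV9-123 has 10.
IGKV9-120: ctacaatatgctagttctcctcc
IGKV9-129: ctacaatatgctagttctcctcc
IGKV9-124: ctacaatatgctagttAtcctcc
IGKV9-128: ctacaaCatgctagttctcctcc
IGKV9-123: ctacaGCGtAAtGCGtAtcctcT

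The J segments supply the other end of CDR3. The germline bases that J1, J2, J4 and J5 bring to it are given so that the joints can be read.
J1: gtggacg
J2: tgtacacg
J4: attcacg
J5: gctcacg

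IGKV9-120 accounted for most of the family. In WT replicates 1 to 5 it made up 3.83, 4.15, 2.89, 3.54 and 2.66% of all Igk counts of the sample, and in rsCBE replicates 1 to 5 it made up 4.10, 3.99, 2.23, 2.40 and 3.06%. Its mean share, 3.29% ± 0.727 (SD, n = 10), ranked 5 among the 114 V segments. In each genotype the 2 samples given as 1 library lay above the 3 given as 2 parts, and the genotypes overlapped.

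IGKV9-129, the segment whose CDR3 end is identical to that of IGKV9-120, came next but far below. Its shares were 0.119, 0.154, 0.767, 1.22 and 0.404% in WT and 0.179, 0.197, 0.690, 0.358 and 0.755% in rsCBE, with a mean of 0.485% ± 0.362 (SD, n = 10) and rank 61. Here the order of the samples was turned round, with the samples of 2 parts above those of 1 library in both genotypes. The highest value, in WT replicate 4, rested on 38 counts, with a Wilson 95% interval of 0.892 to 1.67%.

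The 2 segments that join by inversion were rare. IGKV9-123 made up 0.198, 0.192, 0.109, 0.129 and 0.0546% of the counts in WT and 0.141, 0.133, 0.0986, 0.0422 and 0.146% in rsCBE. IGKV9-124 made up 0.0659, 0.0467, 0.181, 0.0643 and 0.0109% in WT and 0.0581, 0.0472, 0.148, 0.112 and 0.112% in rsCBE. Their ranges overlapped each other and overlapped between genotypes, and they rest on 216 and 134 counts in all.

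The pseudogene IGKV9-128 was detected in every sample. Its shares were 0.0132, 0.0140, 0.145, 0.0322 and 0.153% in WT and 0.00830, 0.00858, 0.142, 0.119 and 0.0944% in rsCBE, from 99 counts in all. The 4 samples of 1 library were the lowest and held 2 or 3 counts each, and the value of WT replicate 4 rested on 1 count.

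By mean share the order was IGKV9-120, IGKV9-129, IGKV9-123, IGKV9-124 and IGKV9-128. IGKV9-120 was above IGKV9-129 in 10 of 10 samples with no overlap of their ranges. Every later step of the order overlapped: IGKV9-129 was above IGKV9-123 in 8 of 10 samples, IGKV9-123 above IGKV9-124 in 7, and IGKV9-124 above IGKV9-128 in 8. Levels of different segments were not tested against each other.

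**Figure D1:**
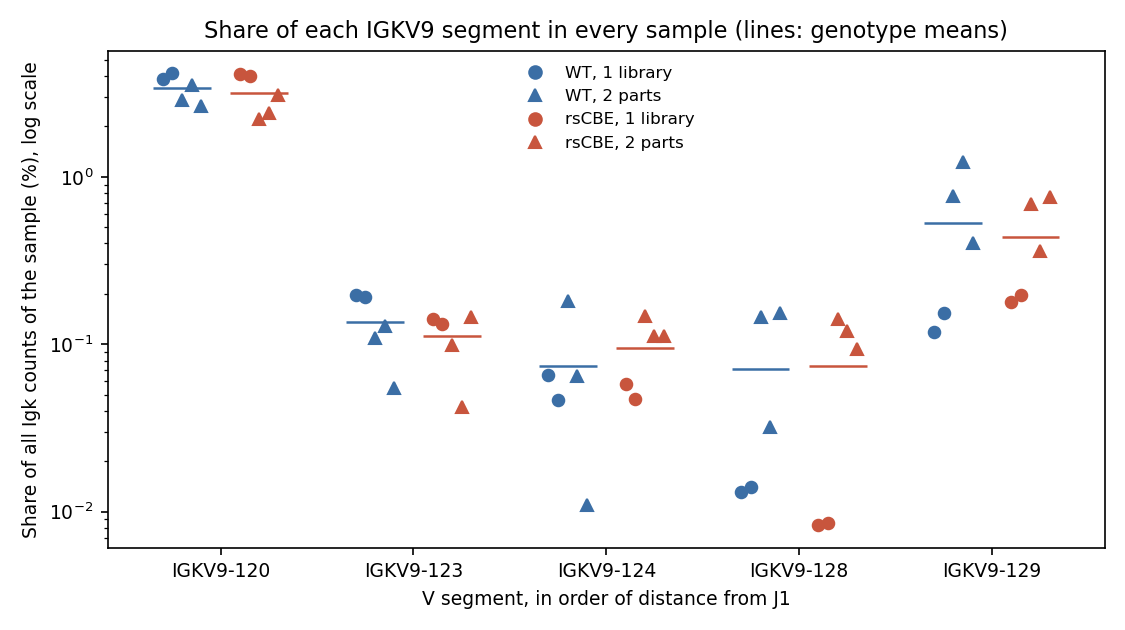
Share of all Igk counts (percent, log axis) of each IGKV9 segment in every sample, WT in blue and rsCBE in red, circles for samples given as 1 library and triangles for samples given as 2 parts; lines are genotype means. IGKV9-120 lies at 2.23 to 4.15% in every sample, and circles and triangles separate for IGKV9-120, IGKV9-128 and IGKV9-129 while the genotypes overlap for every segment. How many other V segments separate in this way was not counted.

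None of the 5 segments passed the test between the genotypes. The family as a whole made up 4.23% ± 0.630 (SD, n = 5) of the WT repertoire and 3.87% ± 0.659 (SD, n = 5) of the rsCBE repertoire. Its log2 fold change, rsCBE over WT, was -0.12 ± 0.16 (SE; edgeR quasi-likelihood test, adjusted p = 0.821), and ran from -0.199 to -0.046 as each sample was left out. A feature was called where its Benjamini-Hochberg adjusted p was under 0.05, and 0 of 20 V families were called (0%), with IGKV9-119 set apart as no family. At an unadjusted p under 0.05 there were 2 families, and DESeq2 called 1, which was not IGKV9.

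Of the single segments, IGKV9-120 stood at -0.11 ± 0.23 (log2 fold change ± SE) and IGKV9-129 at -0.22 ± 0.64. As each sample was left out, IGKV9-120 ran from -0.224 to -0.0099. The rarer IGKV9-123, IGKV9-124 and IGKV9-128 had -0.31 ± 0.44, 0.31 ± 0.58 and 0.04 ± 0.90, and IGKV9-124 was at 0.998 without WT replicate 3. All 5 had an adjusted p of 0.992 with edgeR. Over all 98 V segments tested, 0 were called (0%), 7 had an unadjusted p under 0.05, and DESeq2 called 0. With the deposit structure as a term the standard errors of all 5 were smaller, and none was called. IGKV9-120 and IGKV9-123 had log2 values of -0.12 ± 0.11 and -0.26 ± 0.36 (edgeR, adjusted p = 0.654 and 0.851). IGKV9-124, IGKV9-128 and IGKV9-129 had 0.16 ± 0.46, -0.18 ± 0.44 and -0.04 ± 0.31 (edgeR, adjusted p = 0.934, 0.934 and 0.949).

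The samples were then compared by deposit structure. With genotype in the model, edgeR called 3 of the 5 segments between samples of 2 parts and samples of 1 library, against 56 of 98 V segments tested (57.1%), so the count is near the background. One of the 3, IGKV9-128, had passed the filter on low counts through the samples of 2 parts alone, so its values are given as a description. IGKV9-128 and IGKV9-129 were higher in samples of 2 parts, a direction called for 30.6% of V segments, and IGKV9-120 was lower, a direction called for 26.5%. Whether the 2 kinds of sample differ in preparation, sequencing or animals is not stated, and the cause of the difference was not tested.

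For the pseudogene IGKV9-128 the mean share was 0.0110% ± 0.00300 (SD, n = 4) in samples of 1 library and 0.114% ± 0.0455 (SD, n = 6) in samples of 2 parts, the former from 2 or 3 counts in each sample. IGKV9-129 rose from 0.162% ± 0.0340 to 0.699% ± 0.311, a ratio of 4.31 (log2 2.04 ± 0.32 SE, edgeR adjusted p = 5.4e-05), and with each clonotype counted once it was at log2 1.42 (adjusted p = 1.72e-06). IGKV9-120 fell from 4.02% ± 0.143 to 2.80% ± 0.474 (log2 -0.54 ± 0.11, edgeR adjusted p = 0.000678). For each of these 3 segments the ranges of the 2 kinds of sample did not overlap. How many of all V segments showed this was not counted, so it is a description only.

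The segments joined by inversion did not pass this test. IGKV9-123 was at log2 -0.79 ± 0.35 (SE; edgeR, adjusted p = 0.0623) and IGKV9-124 at 1.03 ± 0.46 (adjusted p = 0.0638). Without WT replicate 4 both were called, at adjusted p = 0.0396 and 0.0294 with edgeR, where 63 of 100 V segments were called against 56 of 98 with all samples. IGKV9-124 was also called without WT replicate 5 (adjusted p = 0.00487, 57 of 100 segments called) and IGKV9-123 without rsCBE replicate 5 (adjusted p = 0.0265, 54 of 99).

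IGKV9-120 and IGKV9-129 moved in opposite directions, and the family total did not pass the test. The family made up 4.41% ± 0.146 (SD, n = 4) of counts in samples of 1 library and 3.81% ± 0.737 (SD, n = 6) in samples of 2 parts (log2 -0.23 ± 0.12 SE, edgeR adjusted p = 0.103), while 11 of 20 families were called (55%). The family passed without WT replicate 1 (log2 -0.28, edgeR adjusted p = 0.0373) or without WT replicate 4 (log2 -0.30, adjusted p = 0.0283). In these fits 12 of 20 and 13 of 20 families were called. Within the family, the part held by IGKV9-120 was 91.1% ± 0.318 in samples of 1 library and 73.8% ± 5.31 in samples of 2 parts. The part held by IGKV9-129 was 3.67% ± 0.736 and 17.7% ± 4.93. Both parts of a sample gave like values for IGKV9-129, from 0.353 to 1.24% in parts a and from 0.365 to 1.19% in parts b, and the largest difference within a sample was 0.133 percentage points. For IGKV9-120 the largest difference was 1.14 percentage points, and part a was the higher in 1 of 6 samples.

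The V segments that lie between and around the IGKV9 segments were used to place them. There were 11 such neighbours in the table, with mean shares from 0.00492% (IGKV1-115) to 2.31% (IGKV17-127) and a median of 0.968%. IGKV9-120 had a higher mean share than any of the 11, and the other IGKV9 segments lay below their median. Of the 9 neighbours tested, 0 were called between genotypes. Between deposit structures 5 were called, all lower in samples of 2 parts, a direction called for 26.5% of all V segments tested. The median log2 fold change of the neighbours in that comparison was -0.55, against -0.07 over all V segments tested. IGKV9-120 thus had the direction of the neighbours' median, and IGKV9-128 and IGKV9-129 the opposite one. IGKV2-116 (log2 0.09) and IGKV17-127 (-0.04) showed little difference. V segments beyond the list were not compared here, and these list values are descriptions with no test.

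**Figure D2:**
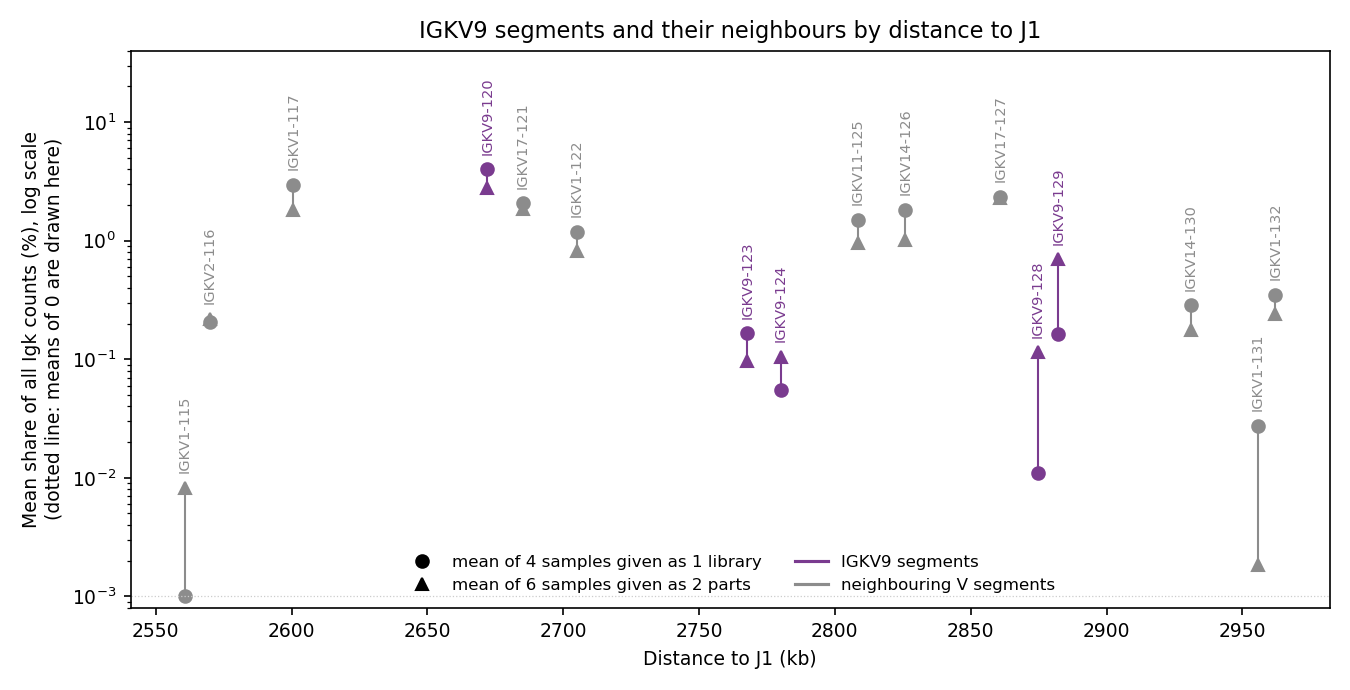
Mean share of all Igk counts (percent, log axis) against distance to J1 in kb for the 5 IGKV9 segments (purple) and 11 neighbouring V segments (grey); circles are means over 4 samples of 1 library and triangles over 6 samples of 2 parts, joined by a line. IGKV9-128 and IGKV9-129 have triangles above circles, while 5 of the 9 neighbours tested were called lower in samples of 2 parts, against 26.5% of all V segments tested.

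J use was compared next. Of the IGKV9 counts, J5 took 22.5, 22.7, 21.6, 33.5 and 27.2% in WT replicates 1 to 5 and 32.1, 33.1, 34.8, 31.0 and 36.2% in rsCBE replicates 1 to 5. WT replicate 4, with its 155 IGKV9 counts, was the one WT sample inside the rsCBE range. WT samples averaged 25.5% ± 5.01 and rsCBE samples 33.5% ± 2.07 (SD, n = 5 for both), which is 7.95 percentage points more (two-sided exact permutation test, p = 0.0317, adjusted p = 0.0540 over 17 V families). This missed the threshold, and 8 of 17 families passed it (47.1%), a count that was 0 of 17 without rsCBE replicate 1, 2, 3 or 5. The count was also 0 of 17 where labels were exchanged only within a deposit structure (exact permutation test, adjusted p = 0.0567 for IGKV9).

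The J5 difference had the same direction in every family. All 17 families had a higher J5 share in rsCBE, with a median difference of 9.20 percentage points, and IGKV9 ranked 11 by size. Without WT replicate 4 the IGKV9 difference was 9.96 points and passed (exact permutation test, adjusted p = 0.0168), as did 12 of 19 families. With each clonotype (a distinct V, J and CDR3 combination in a sample) counted once it was 4.11 points (exact permutation test, adjusted p = 0.190), and 5 of 15 families passed.

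For J1, the IGKV9 shares were 42.9, 43.0, 44.8, 24.5 and 37.5% in WT and 33.3, 31.0, 30.5, 32.2 and 35.4% in rsCBE. WT replicate 4 was again apart, here below every other sample. The means were 38.5% ± 8.29 and 32.5% ± 1.97 (SD, n = 5 each), a difference of -6.07 points (exact permutation test, p = 0.151, adjusted p = 0.183), and 5 of 17 families were called (29.4%), or 0 of 17 without rsCBE replicate 1, 2, 4 or 5. Without WT replicate 4 the difference was -9.57 points (adjusted p = 0.0215), with 9 of 19 families called.

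J2 and J4 gave no call in any of the 17 families (0%; exact permutation test, unadjusted p under 0.05 in 3 families for J2 and 1 for J4). Their mean shares of IGKV9 joins in WT were 22.3% ± 2.26 and 13.7% ± 2.46, and those in rsCBE 21.4% ± 1.52 and 12.7% ± 1.94 (SD, n = 5). J3, which mouse kappa chains rarely use, was found in 0 of 6579 IGKV9 counts, which allows a share of up to 0.0456%. All other V segments had 62 J3 counts, or 0.0399%, so a lack of J3 was not detectable at this depth.

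IGKV9-120 alone showed the J5 difference most evenly. Its J5 share was 21.4, 21.3, 24.3, 26.4 and 24.6% in WT and 31.9, 32.6, 33.4, 28.4 and 34.2% in rsCBE. The genotypes did not overlap, as for 10 of 66 V segments with at least 10 counts in every sample (15.2%). WT averaged 23.6% ± 2.21 and rsCBE 32.1% ± 2.25, or 8.51 percentage points more (SD over 5 samples; exact permutation test, p = 0.00794, the smallest that 5 against 5 samples allow, adjusted p = 0.0524). No segment was called for J5 (0%), and 27 of the 66 had an unadjusted p under 0.05.

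With each clonotype counted once, the J5 difference of IGKV9-120 was 1.51 points (exact permutation test, adjusted p = 0.806). It was 10.9 points in samples of 1 library and 6.90 points in samples of 2 parts. Without WT replicate 4 or 5 it passed the threshold, at adjusted p = 0.0397 and 0.0437 (exact permutation test), together with 29 of 85 and 12 of 66 segments in all. Where only parts a were used it was 10.3 points (adjusted p = 0.0411, same test, 11 of 57 segments called), and where only parts b were used 6.54 points (adjusted p = 0.202, 7 of 43).

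The J1 share of IGKV9-120 was 43.6, 43.8, 51.1, 28.2 and 40.6% in WT and 34.2, 32.4, 31.7, 33.3 and 33.9% in rsCBE. The rsCBE samples lay within a narrow range, and WT replicate 4 lay below it. The difference was -8.36 points (exact permutation test, p = 0.0476, adjusted p = 0.196), and 0 of 66 segments were called for J1 (0%), 16 with an unadjusted p under 0.05. IGKV9-129, with 27 to 126 counts in a sample, had J5 shares of 13.2 to 60.5% in WT samples and 31.4 to 41.9% in rsCBE samples (difference 7.10 points, exact permutation test, adjusted p = 0.564).

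V-J pairs were also tested as a share of the whole repertoire rather than of the segment. For IGKV9-129 the direction for J5 was not the same, at log2 -0.04 ± 0.80 (SE; edgeR, adjusted p = 0.978). IGKV9-120 and IGKV9-129 each had 4 pairs in the test, with J1, J2, J4 and J5, and edgeR called 0 of these 8, as it called 0 of all 270 pairs (0%). At an unadjusted p under 0.05 there were 25 pairs, 0 of them IGKV9, and DESeq2 called 5 pairs, 0 of them IGKV9. The pair of IGKV9-120 with the smallest p was that with J1, at log2 -0.43 ± 0.30 (SE; adjusted p = 0.651), and that of IGKV9-129 was with J2, at -0.77 ± 0.79 (adjusted p = 0.771), or -0.045 without WT replicate 3. In the 4 samples of 1 library alone, IGKV9-120 with J5 was called (log2 0.62 ± 0.19 SE, edgeR adjusted p = 0.0420), as were 35 of 285 pairs. In the 6 samples of 2 parts alone it was at 0.13 ± 0.32 and 0 of 260 pairs were called, and over all samples it was at 0.36 ± 0.28 (edgeR, adjusted p = 0.697).

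**Figure D3:**
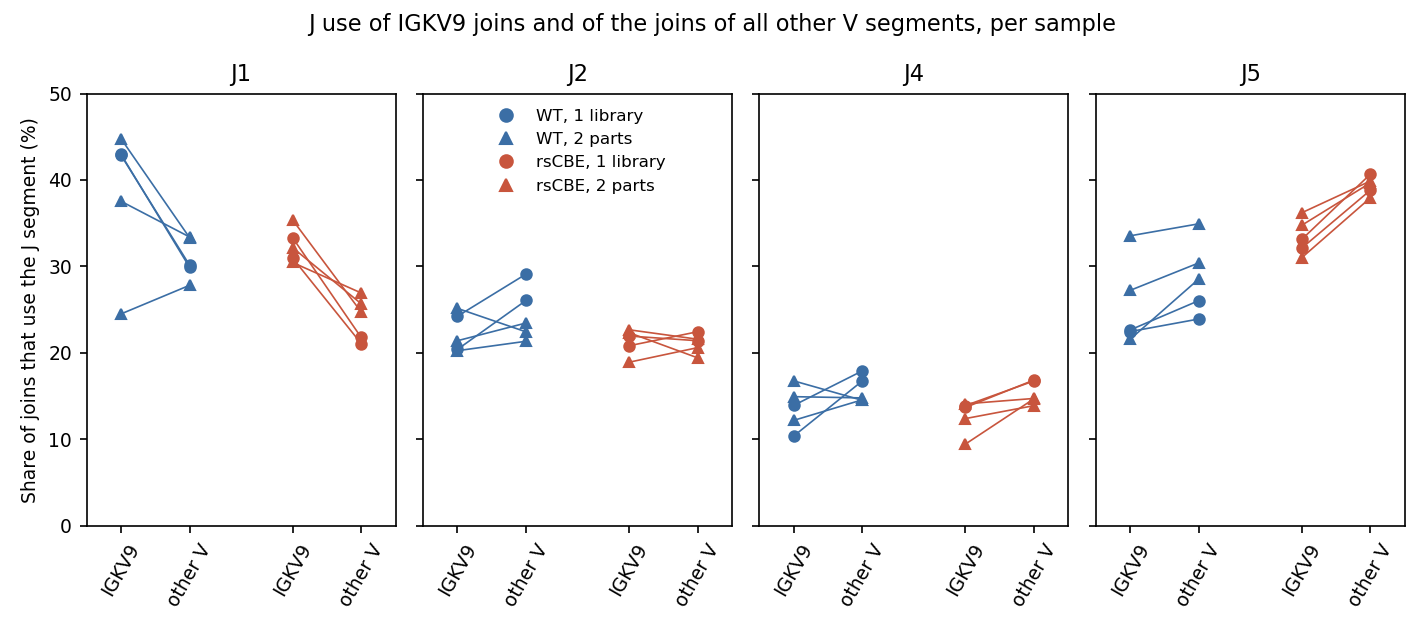
Share of joins (percent) that use J1, J2, J4 and J5, for IGKV9 and for all other V segments, with a line for each sample, WT in blue and rsCBE in red, circles for 1 library and triangles for 2 parts. J5 lines rise from IGKV9 to the other V segments in 10 of 10 samples, and J1 lines fall in 9 of 10, the exception being WT replicate 4.

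The rarer segments could be described only with the samples added up. IGKV9-123 had 41.7% of its 216 counts on J5 and 18.5% on J1, while IGKV9-124 had 20.1% of its 134 counts on J5 and 50.7% on J1. Both join by inversion. The pseudogene IGKV9-128 had 50.5% of its 99 counts on J5 and 25.3% on J1. IGKV9-120 stood at 27.7% and 38.0%, and IGKV9-129 at 33.1% and 28.1%. All other V segments averaged 34.1% on J5 and 27.5% on J1 over the samples. Beside these means, IGKV9-120 and IGKV9-124 had less J5 and more J1. IGKV9-123 and IGKV9-128 had more J5 and less J1, and IGKV9-129 lay near both means. No test was made on these sums, since clonotypes of a few samples can set them.

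Within samples, IGKV9 joins taken as a sum differed from the joins of all other V segments in the J segment they used. Most of these joins came from the family's most frequent segment. The differences below are therefore those of the sum, and the single segments described above did not all share their direction. J1 took 35.5% ± 6.52 of IGKV9 joins and 27.5% ± 4.30 of the others (SD, n = 10), a mean difference within samples of 8.02 percentage points, with IGKV9 higher in 9 of 10 samples (two-sided exact sign-flip test, adjusted p = 0.00586 over 6 measures). The J1 difference averaged 11.8 points in samples of 1 library and 5.49 in samples of 2 parts. J5 took 29.5% ± 5.53 and 34.1% ± 6.31, with IGKV9 lower in 10 of 10 samples and a mean difference of -4.61 points (exact sign-flip test, adjusted p = 0.00391). J4 was lower in IGKV9 in 8 of 10 samples, with a mean difference of -2.37 points (exact test, adjusted p = 0.0258), or -4.10 in samples of 1 library and -1.23 in samples of 2 parts. J2 did not pass, at -0.97 points (exact test, adjusted p = 0.312), or -2.91 in samples of 1 library and 0.315 in samples of 2 parts.

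The J4 difference was no longer called with each clonotype counted once (-1.12 points, exact test, adjusted p = 0.225) or where only parts a were used (-1.86 points, adjusted p = 0.178). It was also lost without WT replicate 1 or 2, or without rsCBE replicate 1, 2 or 5 (exact test, adjusted p = 0.0516 in each case). The J1 and J5 differences passed in every such setting, with J1 at 7.46 to 9.28 points and J5 at -4.97 to -4.29 points as each sample was left out in turn.

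The genotype difference in J5 was then compared between IGKV9 and the rest. J5 use was higher in rsCBE by 7.95 points in IGKV9 joins and by 10.6 points in all other joins, so that IGKV9 lay 2.67 points below the rest in that difference (exact permutation test, p = 0.0556, adjusted p = 0.111). It was -4.70 points in samples of 1 library and -1.32 points in samples of 2 parts. Where only parts a were used it was -1.12 points (exact permutation test, adjusted p = 0.722), and where only parts b were used -4.73 points (adjusted p = 0.0794). Without WT replicate 3 it was -3.60 points and passed (exact permutation test, adjusted p = 0.0317 over J5 and J1). For J1 the genotype difference of IGKV9 and of the rest differed by 0.802 points (exact permutation test, p = 0.881).

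IGKV9 joins were more often in frame than other joins. A join was counted as in frame where its CDR3 length was a multiple of 3 with no stop codon in CDR3. The in-frame share was 81.3, 78.7, 71.3, 73.5 and 78.7% for IGKV9 in WT and 76.5, 71.7, 75.0, 72.2 and 66.5% in rsCBE. It was above that of all other V segments in 10 of 10 samples, with means of 74.5% ± 4.40 and 67.7% ± 4.46 (SD, n = 10) and a mean difference of 6.86 points (exact sign-flip test, adjusted p = 0.00391). Counted once per clonotype, the difference was 4.24 points and did not pass (exact sign-flip test, adjusted p = 0.0914). With the samples added up, the in-frame share was 76.2% for IGKV9-120, 72.9% for IGKV9-129 and 69.9% for IGKV9-123. For IGKV9-124 and IGKV9-128 it was 61.2% and 62.6%, below the mean of the other V segments, and these sums were not tested.

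Between genotypes the in-frame share of IGKV9 averaged 76.7% ± 4.11 for WT and 72.4% ± 3.85 for rsCBE (SD over 5 samples), a shift of -4.34 points (exact permutation test, p = 0.127, adjusted p = 0.270). No V family was called (0%), 3 had an unadjusted p under 0.05, and the median difference over 17 families was -4.44 points. With each clonotype counted once the IGKV9 difference was -9.75 points and passed (exact permutation test, adjusted p = 0.0397), as did 5 of 15 families in all. IGKV9-120 and IGKV9-129 differed by -5.06 and 6.07 points (exact permutation test, adjusted p = 0.410 and 0.540).

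**Figure D4:**
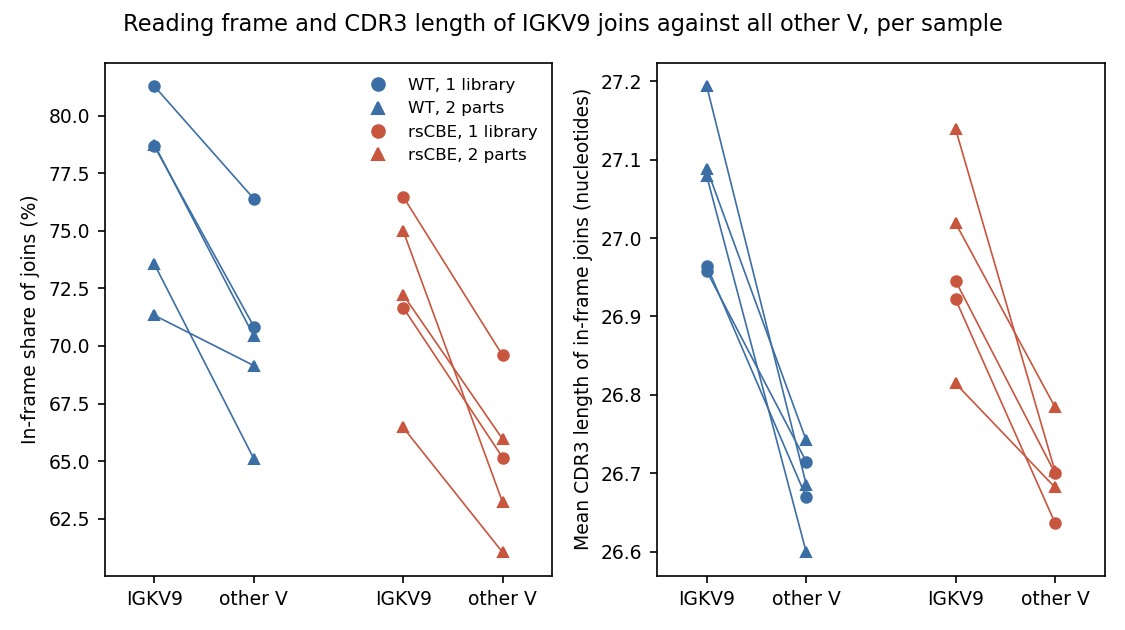
In-frame share of joins (percent, left) and mean CDR3 length of in-frame joins (nucleotides, right) for IGKV9 and for all other V segments, a line for each sample, WT in blue and rsCBE in red, circles for 1 library and triangles for 2 parts; axes do not start at 0. Every line falls from IGKV9 to the other V segments, by 6.86 percentage points and 0.321 nucleotides on average.

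CDR3 length was nearly fixed. In-frame IGKV9 joins had a mean CDR3 of 27.01 ± 0.114 nucleotides, against 26.69 ± 0.0517 for all other V segments (SD, n = 10), with IGKV9 longer in 10 of 10 samples by 0.321 nucleotides on average (exact sign-flip test, adjusted p = 0.00391). Between genotypes the IGKV9 mean was 27.06 ± 0.0981 in WT and 26.97 ± 0.121 in rsCBE (exact permutation test, adjusted p = 0.992), with 0 of 17 families called and 0 at an unadjusted p under 0.05 (0%). Of the in-frame counts of IGKV9-120, 90.8% had a CDR3 of 27 nucleotides, or 9 codons. Over all frames that length took 71.7% ± 8.39 of the WT counts of IGKV9-120 and 67.2% ± 3.14 of its rsCBE counts (SD over 5 samples), and no other length exceeded a mean of 9.14% in either genotype.

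**Figure D5:**
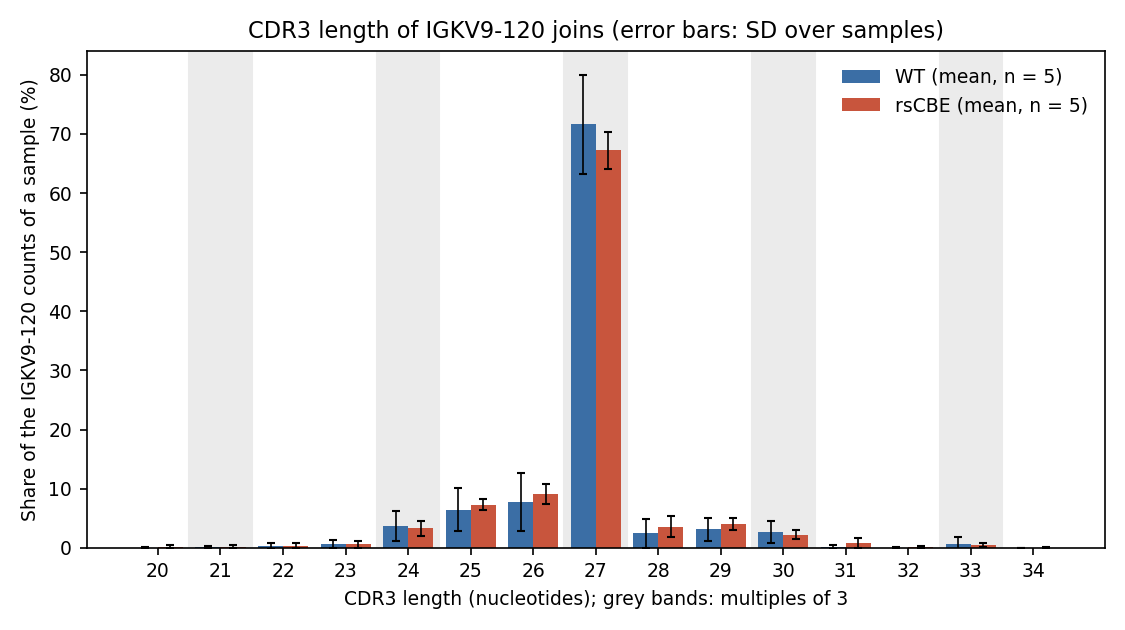
Share of the IGKV9-120 counts of a sample (percent) by CDR3 length in nucleotides, as means over 5 WT (blue) and 5 rsCBE (red) samples with SD as error bars; grey bands mark multiples of 3. The bars at 27 nucleotides reach 71.7% in WT and 67.2% in rsCBE, and all others stay below 10%.

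A few joints made up most of that peak. The 4 joints shown for IGKV9-120 were found in 10 of 10 samples and held 985, 758, 693 and 397 of its 5535 counts; they are 4 of the 6 in-frame joints found in all samples, those with J1 and J2 ranking first by mean share, and those with J5 and J4 were added after their values were seen. Capitals mark the bases after the longest match to the germline V end, so the lower case stretch is what IGKV9-120 contributed.
IGKV9-120 with J1: ctacaatatgctagttctccGTGGACG
IGKV9-120 with J2: ctacaatatgctagttctccGTACACG
IGKV9-120 with J5: ctacaatatgctagttctccGCTCACG
IGKV9-120 with J4: ctacaatatgctagttctccATTCACG

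In all 4 the V end had lost its last 3 bases, no base was added, and the J segment was whole, except that J2 had lost its first base. The joint with J1 held 21.7% ± 5.16 of the WT counts of IGKV9-120 and 14.1% ± 2.13 of the rsCBE counts, and that with J5 11.0% ± 2.42 and 14.6% ± 2.90 (SD over 5 samples). Their ranges overlapped between genotypes, from 14.5 to 26.6% against 12.0 to 17.4% for J1 and from 7.27 to 13.5% against 11.7 to 18.5% for J5, and single joints were not tested. The J2 joint held 16.2% ± 3.99 and 13.1% ± 1.45, and the J4 joint 7.18% ± 2.61 and 7.27% ± 1.15.

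The out-of-frame joint found in most samples, shown to set its sequence beside the in-frame ones, had 25 bases and 153 counts in 9 samples. It joined IGKV9-120 to J5 where 3 bases are the same in both germline ends, so the point of joining cannot be placed within them.
IGKV9-120 with J5, out of frame: ctacaatatgctagttctcctcACG

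IGKV9-129, whose end has the same bases, shared joints with IGKV9-120, among them those with J5 and J2 shown above. The joint with J5 was found in 10 of 10 samples (114 of its 595 counts) and that with J2 in 9 (85 counts). Of 111 distinct combinations of J and CDR3 in IGKV9-129, 54 were also found in IGKV9-120, which is 48.6% of those of IGKV9-129 and 9% of the 600 of IGKV9-120. These 54 held 84.2% of the IGKV9-129 counts. Such pairs are told apart only by bases upstream of CDR3, so a call that confused the segments would not show in the joint; this was not tested.

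The other segments are shown with the in-frame joints found in most samples, to set their ends beside those above. IGKV9-123 with J2 was found in 6 samples (28 counts) and IGKV9-128 with J5 in 6 (21 counts), and both had lost 3 bases of the V end, as in IGKV9-120. IGKV9-124 had 2 joints with J1 in 6 samples each, one that had lost 1 base of V (18 counts) and one that had lost 3 (15 counts).
IGKV9-123 with J2: ctacagcgtaatgcgtatccGTACACG
IGKV9-124 with J1, 1 base lost: ctacaatatgctagttatcctcGGACG
IGKV9-124 with J1, 3 bases lost: ctacaatatgctagttatccGTGGACG
IGKV9-128 with J5: ctacaacatgctagttctccGCTCACG

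Over all IGKV9 joins, the V end could be followed for at least 15 bases in 93.6% of counts. Of these, 89.9% held no base beyond the germline ends, and 61.4% had lost exactly 3 bases of V. At least 1 base shared by both ends was present in 15.3%. IGKV9-123, the segment with the most different end, had lost exactly 3 bases in 42.5% and none in 36.5% of its 200 counts so followed, and 41% had a shared base. In IGKV9-120 the share that had lost none was 9.03%.

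By genotype, and again of the IGKV9 counts whose V end could be followed, joints without added bases made up 90.3% ± 2.24 in WT and 89.8% ± 2.83 in rsCBE (SD over 5 samples). Joints with a shared base made up 13.6% ± 2.93 and 17.3% ± 2.09, and those that had lost exactly 3 bases of V 64.6% ± 2.65 and 59.1% ± 4.54. The ranges overlapped for each of these measures, from 11.2 to 18.6% against 14.7 to 20.4% for the second and from 61.4 to 67.7% against 54.1 to 66.0% for the third, and they were not tested.

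Most distinct joints were private to a sample, and most counts were not. Of 600 distinct J and CDR3 combinations of IGKV9-120, 456 (76%) were found in 1 sample and held 8.98% of its counts. The 6 found in all 10 samples, all in frame, held 58.8%. For IGKV9-129 the only combination in all 10 samples held 19.2% of counts, and the 85 found in 1 sample 21.7%. IGKV9-123, IGKV9-124 and IGKV9-128 had none in all 10 samples.

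As a description of likeness over the 10 samples, Pearson's r was taken between log2(share in percent + 0.01) of the IGKV9 sum and of every other V segment in the test. The highest were IGKV1-122 (r = 0.76), IGKV1-99 (r = 0.73) and IGKV10-94 (r = 0.73). For IGKV9-120 alone, a choice made after seeing the data, they were IGKV8-30 (r = 0.93), IGKV19-93 (r = 0.88) and IGKV10-94 (r = 0.86). For IGKV9-129 they were IGKV1-133 (r = 0.99), IGKV8-34 (r = 0.92) and IGKV8-18 (r = 0.91), none of them on the list of IGKV9-120. IGKV9-120 and IGKV9-129 were at r = -0.57 with each other. The samples share their totals and their deposit structure, which separates both segments, so these values carry no test.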

How the data were processed

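The table, as the authors deposited it, lists 16 libraries on 49079 lines, each with a V segment per read, a J segment, a CDR3 and a count; the counts are whole numbers with no normalization. Per the labels' protocols, Igk amplicons were read in pairs on a MiSeq. The build mm10 is named in the submitters' processing notes; the V and J caller, the read filters and whether a count is a molecule are not given in the sources used here. Both reads had 1 and the same V call on every line. Segments as alike as IGKV9-120 and IGKV9-124 may still have been confused before deposition, which was not tested.

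Alleles were merged, 49 duplicate lines combined and parts a and b of a sample added. No 2 samples of a genotype were alike within sampling noise (20 pairs, lowest chi-square per degree of freedom 2.39). Counts per V segment, V family and V-J pair were tested with edgeR 4.0.16 in R 4.3.3 (quasi-likelihood F-test, filterByExpr, library size the sample total, factors of 1, so fold changes refer to shares); DESeq2 1.42.0 was an alternative. J use, frame and length were tested by exact two-sided permutation in families or segments with at least 10 counts in every sample, and within samples by exact sign-flip tests (smallest p 0.00195). P-values were adjusted over all features tested by the Benjamini-Hochberg method at 0.05. The tests were checked on simulated data, in edgeR's case with changes that left the totals alike; changes that move the total also move the shares of other segments. Deviations of same-numbered samples from their genotype means correlated at 0.110 to 0.798 over V segments, so replicate numbers were taken as pairs in an alternative fit; the labels do not say what a number marks, and 4 of 10 samples correlated best with their own number.

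Germline sequences are those of GENCODE M21 on GRCm38, the same assembly as mm10. All 5 segments are named, with the V-J pair of smallest p in its segment, neighbours by their number along the locus, and joints by the number of samples that hold them. The members and lists were chosen with earlier results of these data known.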

Additional observations from a re-analysis of the deposited data

Results flagged for a closer look

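In rsCBE replicate 5, J4 took 8.40% of the IGKV9-120 joins, against 12.9 to 14.5% in the other 4 rsCBE samples. Its gap to the nearest sample was 0.732 of the group's whole range, above Dixon's 95% critical value of 0.71 for 5 samples. It was the only such sample among 36 groups of 5 examined (shares of the segments, and J use, frame and length of IGKV9 and IGKV9-120 joins by genotype). Chance flags about 1 in 20 groups, or 1.8 of 36.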

How the results depend on the processing

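Of 484 results under alternatives, 443 kept their direction and their side of the threshold, 8 fell short of it, 14 passed it newly, 17 changed sign and 2 counts of calls moved by over 1.5 times or from 0. Depth limits the rare segments: IGKV9-128 rests on 1 to 3 counts in 5 of the samples.

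The changes of sign were all in uncalled genotype differences (edgeR, adjusted p from 0.529 to 0.999). IGKV9-128, at log2 0.04, was at -0.18 with the deposit structure as a term, at -0.12 with the replicate block, at -0.060 in samples of 2 parts alone, and at -0.051 without clonotypes of 1 count; as each sample was left out in turn it ran from -0.39 to 0.57. IGKV9-129 ran from -0.51 to 0.28 and was at 0.46 in samples of 1 library alone. There IGKV9-120 was at 0.020, IGKV9-124 at -0.10 and the family at 0.014; IGKV9-123 was at 0.029 in samples of 2 parts alone.

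Blocking on the replicate number changed no IGKV9 call between genotypes, and the comparisons of IGKV9 with other V within samples were not blocked: 0 segments and 0 V-J pairs of IGKV9 were called, the family was at -0.12 (edgeR, adjusted p = 0.677), and the paired test of the J5 share gave adjusted p = 0.193, with 0.0625 the smallest p that 5 pairs allow. It called 1 of 98 V segments and 2 of 20 families, against 0 without it, and none of them was IGKV9.

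Left-out samples gave 6.97 to 9.96 points for the J5 share, -9.57 to -4.51 for J1 and -3.60 to -2.20 for the J5 difference against other V. For the in-frame share between genotypes they gave -5.69 to -2.87 points. The J5 share passed with parts a alone (9.74 points, adjusted p = 0.0181, with 9 of 16 families) and not with parts b alone (5.56 points, adjusted p = 0.381, 6 of 15), and the in-frame share with each clonotype counted once (-9.75 points). Between deposit structures 3 to 5 segments were called as each sample was left out (over all V, 51 to 63 of 96 to 100), and 2 of the 2 tested with each clonotype counted once (over all V, 47 of 87). The 3 to 5 include the pseudogene, which stands as a description only, since it had passed the filter on low counts through the samples of 2 parts alone. The family's 2 most frequent segments were called each time. With the deposit structure as a term, calls between genotypes went from 0 to 2 of 98 segments, 2 of 20 families and 7 of 270 V-J pairs, with 0 in IGKV9. Within samples of 1 library 1 IGKV9 V-J pair was called. The subsets by deposit structure and the tests of J use and frame in single segments were added after the data were seen; causes were not tested.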
